A study of Arachis hypogaea with 15 samples.

Results

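The brassinosteroid genes of cultivated peanut (Arachis hypogaea) were followed through the compound leaf by RNA sequencing. They are the 38 rows, out of 59878 in the deposited gene table, whose product name contains brassinosteroid, brassinazole, BZR1, BES1 or BRI1. A pair of these rows is the same locus listed again with identical values, which leaves 37 loci. By product name they comprise 16 transcription factor genes of the BZR1/BES1 type, 11 genes of the coreceptor BAK1, 6 genes of the chloroplast GTPase BRASSINAZOLE INSENSITIVE PALE GREEN 2 (BPG2), 1 gene like the BRI1 kinase inhibitor 1 (BKI1), 1 gene for the receptor-like kinase BRI1-like 2, and 2 others. The hormone receptor BRI1 itself is not analysed here. The loci lie on 17 chromosomes, 18 of them on chromosomes 1 to 10 and 19 on chromosomes 11 to 20.

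Brassinosteroids are plant steroid hormones that promote cell elongation and help set organ boundaries and leaf shape. In Arabidopsis the hormone binds the receptor kinase BRI1 at the cell surface, which releases the inhibitor BKI1 and joins the coreceptor BAK1. The signal passes through BSK kinases and BSU1-type phosphatases, inactivates GSK3-type kinases such as BIN2, and so lets the transcription factors BZR1 and BES1 stay in the nucleus and act on growth genes. Brassinazole is an inhibitor of brassinosteroid synthesis, and several of these genes owe their names to mutants selected with it.

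Transcripts were measured in 15 libraries, 3 in each of 5 groups, from plants 40 days old kept under 16 h of light and 8 h of dark at 22 °C and 70% humidity. The groups were the shoot apex of a mutant, labelled by its pentafoliate defects, and, from wild-type plants, the shoot apex, the petiole, and leaflets in terminal and in lateral position. The labels name neither the mutated gene nor the genetic background of the mutant, so background and mutation cannot be told apart. Levels are given as FPKM (fragments per kilobase of transcript and per M mapped fragments), with the SD over the 3 libraries of a group. Fold changes in log2 are differences of log2(FPKM + 1), which understate the change of low genes. Calls are by limma with Benjamini-Hochberg adjustment over the 39031 genes that reached 1 FPKM in 3 or more libraries, at an adjusted p under 0.05. The estimated depth was 16.6 to 17.8 M fragments per library at full transcript length. With 50 bases taken off each length it was 19.5 to 20.7 M, with a closer fit.

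Tissue markers separated the groups. Median summed levels of 19 class I KNOX genes, which mark the shoot apex, were 355 FPKM in the mutant apex, 247 FPKM in the wild-type apex, 30.6 FPKM in the petiole, 1.21 FPKM in the terminal and 1.11 FPKM in the lateral leaflet. Those of 30 Rubisco small subunit and chlorophyll-binding protein genes were 5756, 5281, 8704, 25740.5 and 20975 FPKM in the same order, and none of the 30 was at 0 in any group. The mutant and wild-type apices also differed in 37 sieve element occlusion genes, a phloem list, at 664 to 686 FPKM in the mutant and 365 to 369 FPKM in the wild type, with 4 of the 37 at 0 in each. A list of 6 dividing-cell genes, none at 0 in any group, summed to 413 to 432 FPKM in the mutant and 360 to 365 FPKM in the wild-type apex, and to 389 to 408 FPKM in the petiole, 418 to 449 FPKM in the terminal and 443 to 458 FPKM in the lateral leaflet. Medians of 70 vascular secondary-wall genes were 67.5 FPKM in the mutant apex, 71.5 FPKM in the wild-type apex, 124 FPKM in the petiole, 89.1 FPKM in the terminal and 84.7 FPKM in the lateral leaflet, with 3 to 10 of the 70 at 0 in a group. In bulk tissue, fewer cells of a type and less RNA per cell cannot be told apart.

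Against the leaflets, the transcription factor genes and the receptor-side genes mostly ran opposite ways. Compared with the mean of the leaflets, 7 of 9 tested transcription factor genes were higher in the wild-type apex, while 8 of 9 coreceptor genes, 5 of 6 BPG2 genes, the BKI1-like gene and the BRI1-like 2 gene were lower. Together 8 of the 27 tested loci were higher and 17 lower, when 79.6% of all genes tested were called in this comparison, 35.3% as higher and 44.3% as lower. The share of tested members called was 92.6%, and the classes differed in direction. The petiole against the leaflets gave 7 members higher and 15 lower, beside 30.8% and 44.1% of all genes and 74.8% in either direction, with all 7 of the higher ones in the transcription factor class. In the wild-type apex against the petiole 9 members were higher and 5 lower, beside 27.5% and 27.2% of all genes and 54.7% in either direction. There 7 transcription factor genes were higher, the coreceptor genes split into 2 higher and 2 lower, and the BRI1-like 2 gene was not called. These comparisons share the apex, petiole or leaflet libraries and are not independent. Among the members called lower than in the leaflets, arahy.6A3U8Z.1 and arahy.1QBL6K.1 passed the filter only through their leaflet values, which favoured that call.

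In the mutant apex against the wild-type apex, 10 of 27 members rose and 2 fell, beside 23.7% of all genes called higher and 11.9% called lower. The share of tested members called was 44.4%, beside 35.6% of all genes. The median change was 0.18 on the log2 scale over the members and 0.07 over all genes. Of the rises 6 were coreceptor genes, 2 were transcription factor genes and the others were the BKI1-like and BRI1-like 2 genes. Quantile normalization evened out the split over all genes, from 9243 higher and 4633 lower to 6889 higher and 6112 lower, and gave 7 members higher and 4 lower. The terminal against the lateral leaflet gave 1 member higher and 2 lower, beside 5.63% and 7.45% of all genes, and 13.1% of all genes called in either direction.

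**Figure D1:**
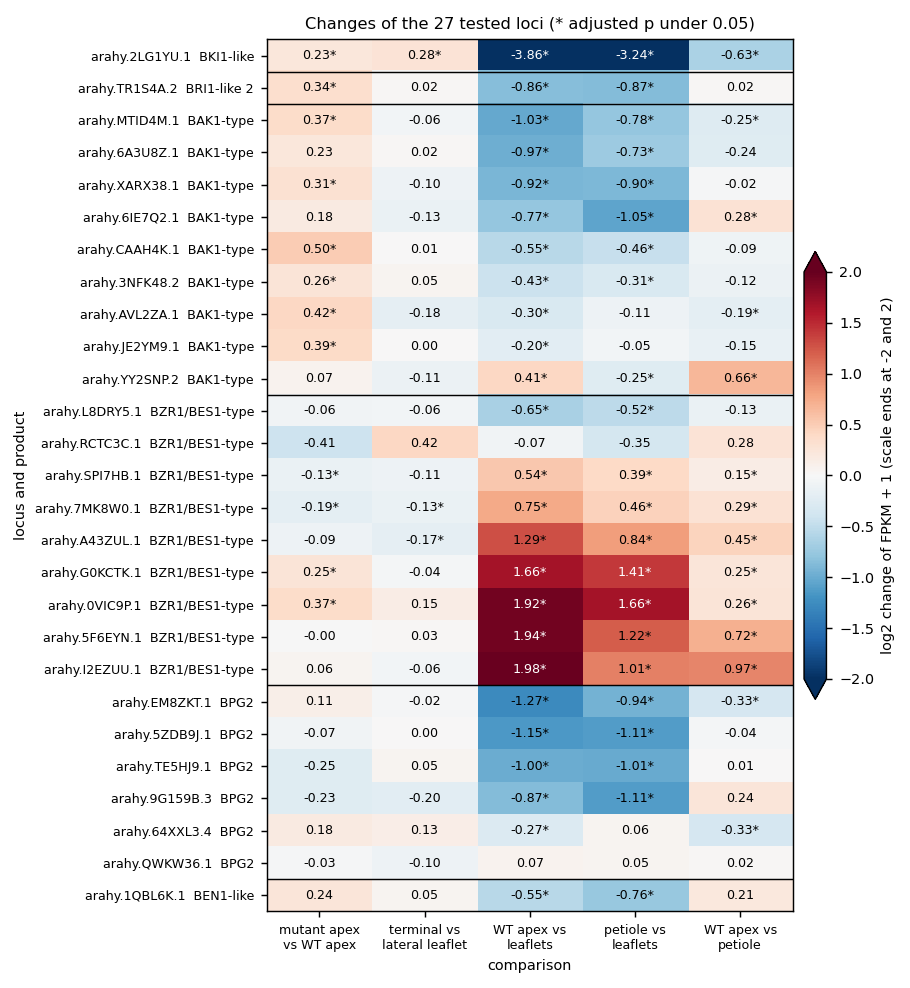
Change of each of the 27 tested loci (rows, grouped by product class) in the 5 comparisons (columns), as a log2 difference of FPKM + 1; red is higher in the first-named group, blue lower, and an asterisk marks an adjusted p under 0.05. The BKI1-like gene at the top reached -3.86 in the wild-type apex against the leaflets, where the 4 homolog 4 transcription factor genes lay between 1.66 and 1.98.

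The largest difference among the members belonged to the BKI1-like gene, whose Arabidopsis namesake holds the receptor kinase inactive at the plasma membrane until the hormone is bound. This gene, arahy.2LG1YU.1, lies on chromosome 8 from 6266087 to 6267058 on the plus strand of the first Tifrunner assembly, with a transcript of 972 bases. Its levels were 2.24, 2.02 and 2.07 FPKM in the mutant apex, 1.48, 1.76 and 1.73 FPKM in the wild-type apex and 3.08, 2.79 and 3.45 FPKM in the petiole. The terminal leaflet had 46.12, 38.96 and 39.91 FPKM and the lateral leaflet 31.97, 35.23 and 34.97 FPKM. Every leaflet library lay far above every apex and petiole library, and the terminal leaflet libraries lay above the lateral ones.

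Expression of the BKI1-like gene in the wild-type apex was 22.9-fold lower than in the leaflets (log2 change -3.86, SE 0.0668, adjusted p = 3.19e-16 by limma). That made it the gene with rank 84 from the lowest of 39031 in this comparison. The petiole was 12.2-fold lower than the leaflets (log2 change -3.24, limma adjusted p = 4.63e-15). The wild-type apex was lower than the petiole as well, by 1.88-fold (log2 change -0.63, limma adjusted p = 6.91e-06). Photosynthesis transcripts, given above, were also higher in the leaflets; their part in this result was not tested. A single fragment on this transcript is worth about 0.058 to 0.062 FPKM by the depth at full transcript length, so the apex values rest on few fragments.

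Smaller differences of the BKI1-like gene were also called. Its level was 2.11 ± 0.115 FPKM in the mutant apex and 1.66 ± 0.154 FPKM in the wild-type apex (SD, n = 3 each), a log2 rise of 0.23 (limma adjusted p = 0.0327). In the terminal leaflet it was 41.7 ± 3.89 FPKM and in the lateral leaflet 34.1 ± 1.81 FPKM, a log2 difference of 0.28 (limma adjusted p = 0.0263). The mutant call was lost when replicate 1 or replicate 3 of the mutant or replicate 1 of the wild type was left out, with limma adjusted p-values of 0.1042, 0.05881 and 0.1227, and under quantile normalization, at 0.1015. The leaflet call was lost without replicate 1 of the terminal leaflet (adjusted p = 0.1199), or without replicate 1 or 3 of the lateral leaflet (adjusted p = 0.1085 and 0.05137), and at a pseudocount of 0.1 (adjusted p = 0.06079, all by limma).

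BRI1-like 2 in Arabidopsis is a relative of the brassinosteroid receptor found in vascular tissue. Its peanut counterpart by product name, arahy.TR1S4A.2 on chromosome 5 from 24395164 to 24399087, had a best-hit e-value of 1.2e-55 in the deposited annotation. That is weaker than the 8.7e-78 and 4.1e-75 of the BAK1-type loci arahy.MTID4M.1 and arahy.XARX38.1, so the name is uncertain. Levels were 6.19, 7.69 and 6.88 FPKM in the mutant apex, 5.42, 5.36 and 4.94 FPKM in the wild-type apex, 4.52, 6.13 and 4.94 FPKM in the petiole, 10.46, 11.29 and 9.40 FPKM in the terminal leaflet and 10.81, 9.49 and 10.36 FPKM in the lateral leaflet. The leaflets stood above the other tissues with no overlap. Against the leaflets, the wild-type apex was 1.97-fold lower (log2 change -0.86, limma adjusted p = 2.03e-07) and the petiole 1.98-fold lower (log2 change -0.87, limma adjusted p = 2.1e-07). The mutant rise over the wild-type apex was 0.34 on the log2 scale (limma adjusted p = 0.0134); without replicate 2 of the mutant the adjusted p was 0.06483, and under quantile normalization 0.05041. The vascular and phloem lists differed between these tissues as given above; their part in these differences was not tested.

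BAK1 is a leucine-rich repeat receptor kinase that pairs with BRI1 and, in immunity, with other receptors. Its 11 peanut loci summed to 68.8 ± 0.637 FPKM in the mutant apex, 53.4 ± 1.27 FPKM in the wild-type apex, 56.7 ± 0.513 FPKM in the petiole, 82.7 ± 2.73 FPKM in the terminal leaflet and 84.9 ± 1.59 FPKM in the lateral leaflet (SD, n = 3 each). Several are neighbours. The pairs arahy.YY2SNP.2 and arahy.CAAH4K.1 on chromosome 13, arahy.DH99G0.1 and arahy.AVL2ZA.1 on chromosome 3, and arahy.JE2YM9.1 and arahy.MTID4M.1 on chromosome 20 are separated by 0.847 kb, 1.03 kb and 11.3 kb. On chromosome 10, arahy.3NFK48.2 and arahy.XARX38.1 are separated by 63.3 kb. Reads of neighbouring or homeologous copies with similar sequence may be assigned to the wrong copy, so single values within such pairs are uncertain.

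In the mutant apex 6 of the 9 tested coreceptor genes rose and 0 fell, beside 23.7% of all genes called higher and 11.9% called lower. Their median change was 0.31 on the log2 scale, beside 0.07 over all genes. At an unadjusted limma p under 0.05 the counts were 7 and 0, with no share over all genes taken at that cut. The largest rise was that of arahy.CAAH4K.1 (chromosome 13, from 141118109 to 141123241), at 4.21, 4.14 and 3.54 FPKM in the mutant apex and 2.35, 2.66 and 2.50 FPKM in the wild-type apex. The difference was 1.58-fold, with no overlap between libraries (log2 change 0.50, SE 0.077, limma adjusted p = 0.000168). Next came arahy.AVL2ZA.1 (chromosome 3, from 138208647 to 138213773), with 6.05, 5.57 and 6.11 FPKM in the mutant and 3.98, 4.09 and 4.43 FPKM in the wild-type apex. This is a 1.42-fold difference (log2 change 0.42, limma adjusted p = 8.56e-05).

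Among coreceptor genes expressed above 10 FPKM in the mutant apex, the rises were of a similar order. The BAK1 gene arahy.JE2YM9.1 on chromosome 20 had 14.69, 16.11 and 16.69 FPKM in the mutant and 12.80, 12.22 and 10.65 FPKM in the wild-type apex (log2 change 0.39, limma adjusted p = 0.000574). Its neighbour arahy.MTID4M.1, with a transcript of 1093 bases, had 14.82, 15.34 and 14.37 FPKM in the mutant and 11.98, 10.51 and 11.32 FPKM in the wild-type apex (log2 change 0.37, limma adjusted p = 5.66e-05). On chromosome 10, arahy.3NFK48.2 averaged 12.8 ± 0.935 FPKM in the mutant and 10.5 ± 0.21 FPKM in the wild-type apex (log2 change 0.26, limma adjusted p = 0.00885). In all 3 genes every mutant library exceeded every wild-type library. The remaining rise was that of arahy.XARX38.1, also on chromosome 10, at 6.37 ± 0.164 FPKM in the mutant and 4.94 ± 0.207 FPKM in the wild-type apex (log2 change 0.31, limma adjusted p = 0.00249). The 6 coreceptor rises were also called under quantile normalization and in every fit that left out a library. The KNOX, sieve element occlusion and dividing-cell lists were higher in the mutant apex too, as given above; their part in these rises was not tested.

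Between wild-type tissues, coreceptor genes were generally leaflet-high, to differing degrees. One of them was arahy.MTID4M.1, at 11.3 ± 0.736 FPKM in the wild-type apex and 13.6 ± 0.326 FPKM in the petiole, against 23.5 ± 0.982 FPKM in the terminal and 24.5 ± 0.842 FPKM in the lateral leaflet. The apex was 2.13-fold lower than the leaflets (log2 change -1.03, limma adjusted p = 9.89e-12). Its neighbour arahy.JE2YM9.1 was nearly level, at 11.9 ± 1.11 FPKM in the wild-type apex, 13.3 ± 0.538 FPKM in the petiole, 13.8 ± 0.792 FPKM in the terminal and 13.8 ± 0.73 FPKM in the lateral leaflet. Its call against the leaflets (log2 change -0.20, limma adjusted p = 0.00609) fell out at an adjusted p of 0.05774 when replicate 3 of the wild-type apex was left out, and under quantile normalization and TPM rescaling, at 0.1331 and 0.1122. The tested loci with weaker best hits had the largest falls from leaflets to apex, with log2 changes of -0.77 to -1.03. Among the other tested coreceptor genes the largest such fall was -0.55, at arahy.CAAH4K.1.

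A single coreceptor gene, arahy.YY2SNP.2 on chromosome 13 (from 141109329 to 141117262), was higher in the wild-type apex than in the leaflets. It had 3.86, 3.66 and 3.42 FPKM in the mutant apex, 3.67, 3.44 and 3.14 FPKM in the wild-type apex, 1.83, 1.89 and 1.68 FPKM in the petiole, 2.16, 2.23 and 2.22 FPKM in the terminal leaflet and 2.50, 2.61 and 2.27 FPKM in the lateral leaflet. Both apices lay above the other tissues. The wild-type apex exceeded the leaflets by 1.47-fold (log2 change 0.41, limma adjusted p = 2.18e-05) and the petiole by 1.90-fold (log2 change 0.66, limma adjusted p = 1.72e-06). Its neighbour arahy.CAAH4K.1, 0.847 kb away, ran the other way, with an apex 1.65-fold below the leaflets (log2 change -0.55, limma adjusted p = 2.27e-06). At arahy.YY2SNP.2 the petiole differed from the leaflets by -0.25 on the log2 scale (limma adjusted p = 0.00188), a call that was lost under quantile normalization at 0.4175. Mutant and wild-type apices overlapped in arahy.YY2SNP.2 (limma adjusted p = 0.453).

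The last tested coreceptor loci were arahy.6IE7Q2.1 on chromosome 18 and arahy.6A3U8Z.1 on chromosome 16. At arahy.6IE7Q2.1 the petiole averaged 2.86 ± 0.348 FPKM, against 6.62 ± 0.277 FPKM in the terminal and 7.33 ± 0.61 FPKM in the lateral leaflet, and was 2.44-fold lower than the leaflets (log2 change -1.05, limma adjusted p = 1.28e-09). The short arahy.6A3U8Z.1, with a transcript of 255 bases, reached 1 FPKM in 8 libraries and scattered widely, with 1.02, 5.02 and 1.26 FPKM in the terminal leaflet alone. Its apex and petiole calls against the leaflets rest on such values. This locus passed the filter on low values only through its leaflet libraries, which favoured these calls, so its contrasts are a description. The petiole call was also lost without replicate 2 of the petiole or replicate 2 or 3 of the lateral leaflet. The annotation of arahy.6IE7Q2.1 and arahy.6A3U8Z.1 rests on partial matches, with best-hit e-values of 8.9e-26 and 4e-26. The best hits of arahy.MTID4M.1 and arahy.XARX38.1, at 8.7e-78 and 4.1e-75, were also weaker than those of their neighbours arahy.JE2YM9.1 and arahy.3NFK48.2.

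**Figure D2:**
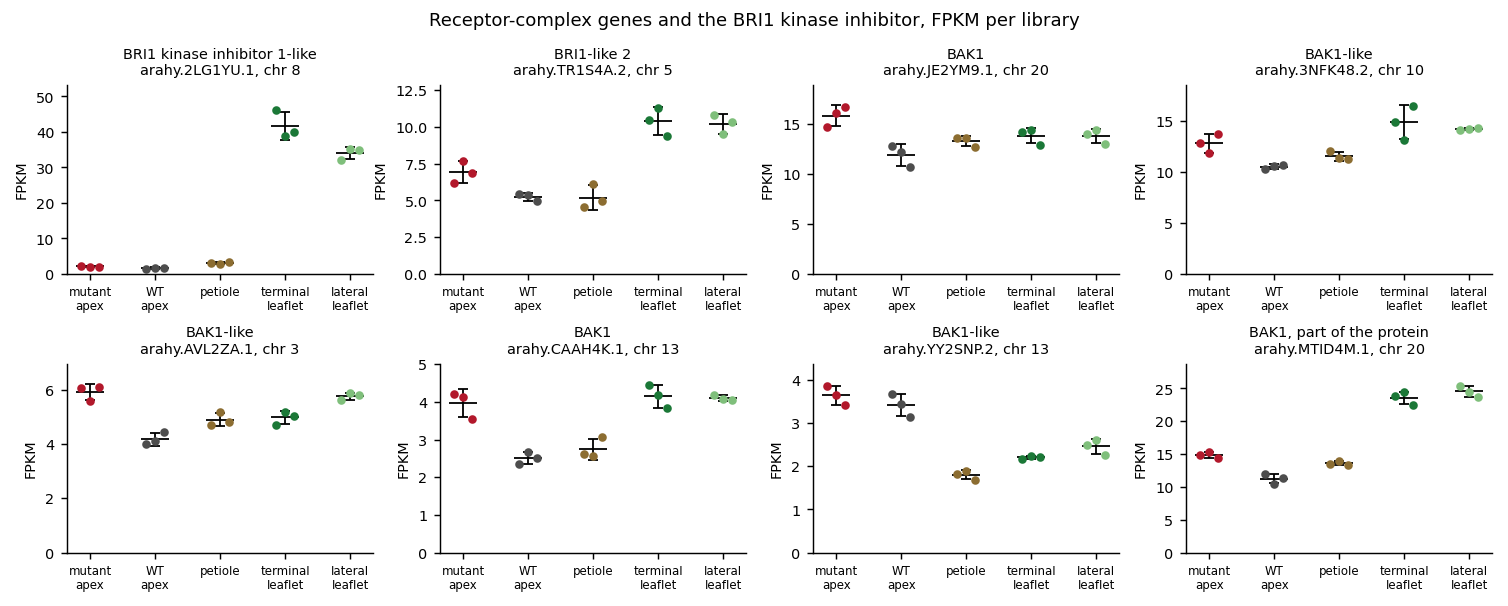
FPKM (vertical axes, from 0, a separate scale per panel) in each library of the 5 groups for the BKI1-like, BRI1-like 2 and 6 BAK1-type genes; points are libraries, the long bar is the mean and the whiskers are 1 SD (n = 3). In the BKI1-like gene the leaflets reached 46.12 FPKM and no apex or petiole library exceeded 3.45 FPKM, whereas arahy.YY2SNP.2 was highest in the 2 apices.

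The transcription factor class carries the output of the pathway. In Arabidopsis, BZR1 and its homologs bind promoters of growth and hormone synthesis genes once they are dephosphorylated, so transcript level is only a part of their control. The 16 peanut loci summed to 184 ± 3.48 FPKM in the mutant apex, 188 ± 7.50 FPKM in the wild-type apex, 147 ± 1.60 FPKM in the petiole, 86.6 ± 1.79 FPKM in the terminal leaflet and 92.6 ± 1.89 FPKM in the lateral leaflet (SD, n = 3 each). Of the 9 tested genes, 7 accounted for nearly all of these sums. They fall into 4 homolog 4 genes, a homolog 2 pair and BRASSINAZOLE-RESISTANT 1 (BZR1).

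The homolog 4 genes showed the steepest tissue contrast. They lie as pairs of opposite strand, arahy.I2EZUU.1 and arahy.0VIC9P.1 on chromosome 7 separated by 101 kb, and arahy.G0KCTK.1 and arahy.5F6EYN.1 on chromosome 18 separated by 121 kb. At arahy.0VIC9P.1 (from 77664792 to 77669023) levels were 19.00, 19.98 and 21.01 FPKM in the mutant apex, 14.33, 15.98 and 15.44 FPKM in the wild-type apex, 13.10, 11.32 and 13.33 FPKM in the petiole, 3.50, 3.71 and 3.34 FPKM in the terminal leaflet and 2.98, 2.72 and 3.51 FPKM in the lateral leaflet. The leaflets lay far below the other tissues, and the mutant above the wild-type apex without overlap. The wild-type apex exceeded the leaflets 4.63-fold (log2 change 1.92, SE 0.0675, limma adjusted p = 1.08e-12) and the petiole exceeded them 3.82-fold (log2 change 1.66, limma adjusted p = 9.37e-12).

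The other homolog 4 genes repeated the apex-to-leaflet contrast. At arahy.I2EZUU.1 the wild-type apex had 13.35, 13.29 and 15.61 FPKM, the terminal leaflet 2.59, 2.73 and 2.88 FPKM and the lateral leaflet 2.36, 3.15 and 3.23 FPKM. The 4.99-fold excess in the apex was the largest among the members (log2 change 1.98, limma adjusted p = 4.88e-12). On chromosome 18, arahy.5F6EYN.1 was 4.50-fold higher (log2 change 1.94, limma adjusted p = 9.03e-14) and arahy.G0KCTK.1 3.68-fold higher in the wild-type apex than in the leaflets (log2 change 1.66, limma adjusted p = 3.44e-11). Photosynthesis transcripts were lower and KNOX transcripts higher in the apex, as given above; their part in this contrast was not tested.

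Within each pair the genes differed in the size of their petiole contrast and in their mutant calls, with no test between partners. At arahy.I2EZUU.1 the petiole had 6.82, 6.78 and 6.44 FPKM, so that the wild-type apex was 2.11-fold higher (log2 change 0.97, limma adjusted p = 4.1e-07). At arahy.5F6EYN.1 it had 10.78, 11.58 and 10.54 FPKM, with the apex 1.70-fold higher (log2 change 0.72, limma adjusted p = 2.15e-07). The partners arahy.0VIC9P.1 and arahy.G0KCTK.1 were 1.21-fold and 1.20-fold higher in the apex than in the petiole (log2 changes 0.26 and 0.25, limma adjusted p = 0.0109 and 0.0312). Without replicate 2 of the petiole the first of these had an adjusted p of 0.06149, and without replicate 1 or 3 of the wild-type apex the second had 0.1069 and 0.1104; leaving out replicate 1 or 3 of the petiole gave it 0.1521 and 0.05097.

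In the mutant apex arahy.0VIC9P.1 rose 1.31-fold (log2 change 0.37, limma adjusted p = 0.00200). Its counterpart on chromosome 18, arahy.G0KCTK.1, had 19.66, 17.73 and 17.39 FPKM in the mutant and 16.02, 13.41 and 16.09 FPKM in the wild-type apex (log2 change 0.25, limma adjusted p = 0.0396), a call lost under 8 of 22 alternatives. Its adjusted p was 0.1445 and 0.06302 without replicate 1 or 2 of the mutant, 0.1752 without replicate 2 of the wild type, 0.05208 at a pseudocount of 0.1 and 0.0603 with the replicate number as a block. The partner genes did not pass: arahy.I2EZUU.1 averaged 14.7 ± 1.32 FPKM in the mutant and 14.1 ± 1.32 FPKM in the wild-type apex (limma adjusted p = 0.672). For arahy.5F6EYN.1 the values were 18.6 ± 0.59 FPKM and 18.7 ± 0.294 FPKM (limma adjusted p = 0.983). The summed level of arahy.0VIC9P.1 and arahy.G0KCTK.1 divided by that of their partners was 1.12, 1.10 and 1.23 in the mutant apex, 0.952, 0.926 and 0.911 in the wild-type apex and 1.38, 1.37 and 1.54 in the petiole. It was 1.06, 1.17 and 1.05 in the terminal leaflet and 1.04, 1.02 and 1.05 in the lateral leaflet. This ratio was chosen after the values were seen and is a description without a test.

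**Figure D3:**
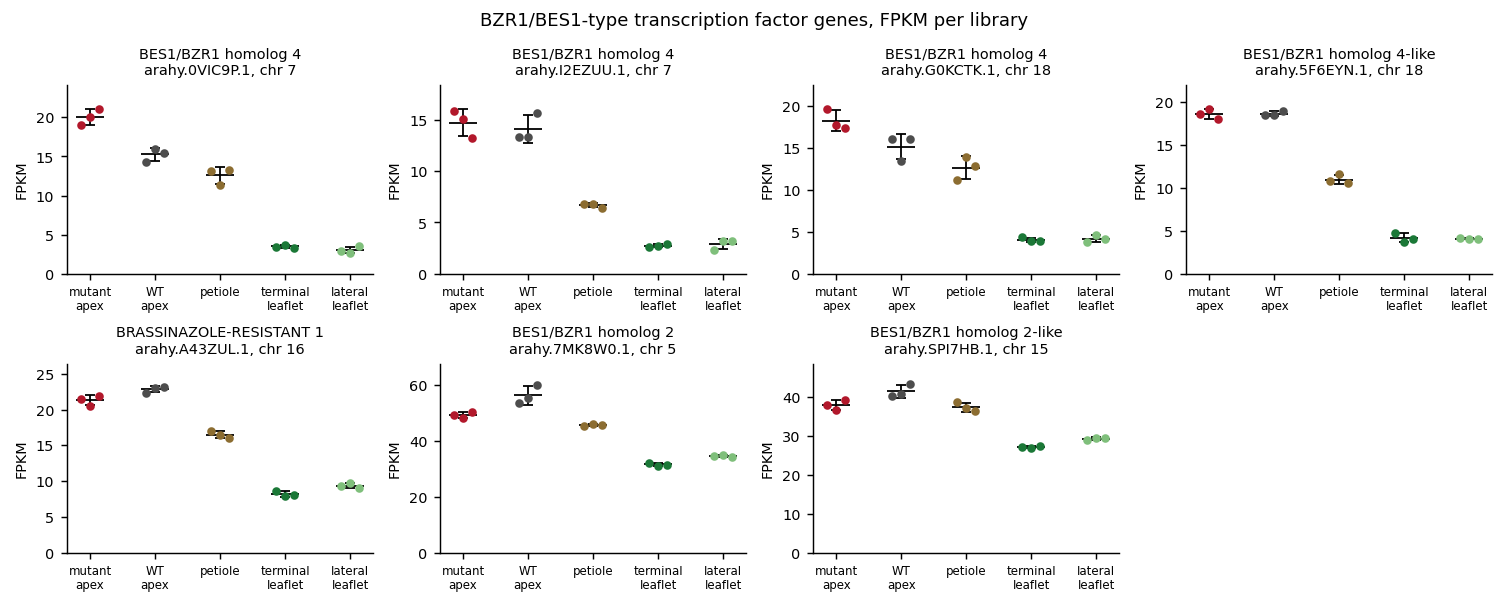
FPKM (vertical axes, from 0, a separate scale per panel) in each library of the 5 groups for the 7 most expressed BZR1/BES1-type genes; points are libraries, the long bar is the mean and the whiskers are 1 SD (n = 3). All 7 step down from apex to leaflet, and the mutant points lie above the wild-type apex in arahy.0VIC9P.1 and arahy.G0KCTK.1 and below it in arahy.7MK8W0.1 and arahy.SPI7HB.1.

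The homolog 2 pair held the highest levels of the class and the shallowest contrast. At arahy.7MK8W0.1 (chromosome 5, from 9834030 to 9838100) levels were 49.33, 48.30 and 50.23 FPKM in the mutant apex, 53.60, 55.38 and 60.05 FPKM in the wild-type apex, 45.42, 46.10 and 45.58 FPKM in the petiole, 32.25, 30.97 and 31.44 FPKM in the terminal leaflet and 34.71, 34.93 and 34.20 FPKM in the lateral leaflet. In each of the 5 comparisons the groups did not overlap. The wild-type apex was 1.70-fold above the leaflets (log2 change 0.75, limma adjusted p = 1.75e-11) and 1.23-fold above the petiole (log2 change 0.29, limma adjusted p = 1.24e-05). Its counterpart arahy.SPI7HB.1 on chromosome 15 averaged 41.5 ± 1.63 FPKM in the wild-type apex, 37.4 ± 1.13 FPKM in the petiole, 27.2 ± 0.194 FPKM in the terminal and 29.3 ± 0.342 FPKM in the lateral leaflet, and was 1.47-fold higher in the apex than in the leaflets (log2 change 0.54, limma adjusted p = 6.38e-10).

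The homolog 2 pair gave the only falls among the members in the mutant apex. The log2 change was -0.19 at arahy.7MK8W0.1 (limma adjusted p = 0.00161) and -0.13 at arahy.SPI7HB.1 (limma adjusted p = 0.0172), which had 37.9 ± 1.25 FPKM in the mutant and 41.5 ± 1.63 FPKM in the wild-type apex. Without replicate 2 of the mutant or replicate 3 of the wild type the adjusted p of the second was 0.07766 and 0.07682, and with only the apex libraries in the fit it was 0.06533. The make-up of the class shifted accordingly. The homolog 2 pair held 47.5 ± 1.06% of the class sum in the mutant apex and 52.0 ± 0.606% in the wild-type apex, 56.6 ± 0.604% in the petiole, 67.8 ± 0.735% in the terminal and 69.1 ± 1.16% in the lateral leaflet. The homolog 4 genes held 39.0 ± 0.979%, 33.6 ± 0.476%, 29.2 ± 0.633%, 16.7 ± 0.362% and 15.4 ± 0.631% in the same order.

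BZR1 itself by product name, arahy.A43ZUL.1 on chromosome 16 from 154172374 to 154176668, lay between these groups of genes. Levels were 21.54, 20.52 and 21.93 FPKM in the mutant apex, 22.36, 23.01 and 23.13 FPKM in the wild-type apex, 17.01, 16.44 and 15.98 FPKM in the petiole, 8.61, 7.89 and 8.07 FPKM in the terminal leaflet and 9.25, 9.75 and 9.07 FPKM in the lateral leaflet. The tissues were ordered apex, petiole, leaflet with no overlap. The wild-type apex was 2.60-fold above the leaflets (log2 change 1.29, SE 0.0395, limma adjusted p = 2.2e-13) and 1.39-fold above the petiole (log2 change 0.45, limma adjusted p = 9.7e-07). The mutant difference of -0.09 on the log2 scale did not pass (limma adjusted p = 0.125).

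The falls in the terminal against the lateral leaflet were in arahy.A43ZUL.1 (log2 change -0.17, limma adjusted p = 0.0213) and arahy.7MK8W0.1 (log2 change -0.13, limma adjusted p = 0.0382). Both calls depended on single libraries. The first was lost without replicate 2 or 3 of the terminal or replicate 2 of the lateral leaflet (adjusted p = 0.08294, 0.06747 and 0.0899 by limma) and under quantile normalization (0.0502), and the second without any library of the leaflets except replicate 1 of the terminal leaflet, as well as without replicate 1 of the mutant apex or of the petiole, at adjusted p-values of 0.05004 to 0.1169.

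The remaining tested transcription factor genes were low and variable. At arahy.L8DRY5.1 on chromosome 2 the wild-type apex had 0.82 to 1.45 FPKM, against 2.25 to 2.35 FPKM in the terminal and 2.14 to 3.09 FPKM in the lateral leaflet (log2 change -0.65, limma adjusted p = 0.0105), a call that leaving out replicate 3 of that apex removed (adjusted p = 0.05984). Its petiole call against the leaflets (limma adjusted p = 0.0364) was lost without replicate 2 or 3 of the petiole, any replicate of the terminal leaflet or replicate 2 of the lateral leaflet, at 0.05181 to 0.1732. Homolog 2 gene arahy.RCTC3C.1 on chromosome 12 was called in none of the 5 comparisons, with limma adjusted p-values of 0.244 to 0.811.

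BPG2 is a chloroplast GTP-binding protein that in Arabidopsis is needed for chloroplast ribosomal RNA processing; plants lacking it stay pale green on brassinazole. Its 6 loci were all tested and summed to 27.2 ± 1.40 FPKM in the mutant apex, 29.6 ± 2.43 FPKM in the wild-type apex, 29.6 ± 0.686 FPKM in the petiole, 57.8 ± 1.89 FPKM in the terminal and 60.4 ± 2.24 FPKM in the lateral leaflet (SD, n = 3 each). The lowest leaflet sum was 55.9 FPKM and the highest of the other tissues 32.2 FPKM. By limma 0 BPG2 genes were called between the apices or between the leaflets, beside 35.6% and 13.1% of all genes. With only 6 genes, a count of 0 between the leaflets does not set the class apart. At an unadjusted limma p under 0.05 the counts were 1 and 0 of 6, with no share over all genes taken at that cut. The authors' deposited test, not named in the sources used here, put arahy.TE5HJ9.1 and arahy.9G159B.3 lower in the mutant apex (q-values 0.000433 and 0.0107). It put arahy.64XXL3.4 higher (q-value 0.0226). The other BPG2 genes had q-values of 0.0842 to 0.359 by that test. Over all genes 49.1% had a q-value under 0.05 there.

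The steepest difference in this class was at arahy.EM8ZKT.1 on chromosome 6 (from 10946986 to 10951964). It had 3.17, 3.49 and 3.44 FPKM in the wild-type apex and 4.73, 4.51 and 4.22 FPKM in the petiole, against 9.15, 10.06 and 9.19 FPKM in the terminal and 9.49, 9.33 and 10.01 FPKM in the lateral leaflet. The apex was 2.83-fold below the leaflets (log2 change -1.27, limma adjusted p = 1.34e-10) and 1.33-fold below the petiole (log2 change -0.33, limma adjusted p = 0.00217). At arahy.5ZDB9J.1 on chromosome 20 the wild-type apex averaged 5.37 ± 0.388 FPKM, against 13.2 ± 1.11 FPKM in the terminal and 13.2 ± 0.72 FPKM in the lateral leaflet, a 2.45-fold difference (log2 change -1.15, limma adjusted p = 1.45e-10). The most expressed gene, arahy.9G159B.3 on chromosome 15, had 9.81 ± 1.71 FPKM in the wild-type apex, 8.07 ± 0.184 FPKM in the petiole, 17.3 ± 0.32 FPKM in the terminal and 20.2 ± 2.56 FPKM in the lateral leaflet. Rubisco small subunit and chlorophyll-binding protein transcripts were higher in the same leaflets, as given above; their part in these differences was not tested.

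A BPG2 gene on chromosome 13, arahy.QWKW36.1, was level across the tissues. It had 4.00 ± 0.103 FPKM in the mutant apex, 4.10 ± 0.242 FPKM in the wild-type apex, 4.02 ± 0.0603 FPKM in the petiole, 3.68 ± 0.216 FPKM in the terminal and 4.03 ± 0.0777 FPKM in the lateral leaflet. Its limma adjusted p-values lay between 0.207 and 0.787. On chromosome 3, arahy.64XXL3.4 varied more, with 1.40 to 1.59 FPKM in the wild-type apex, 2.13 ± 0.0208 FPKM in the petiole, 2.15 ± 0.249 FPKM in the terminal and 1.88 ± 0.167 FPKM in the lateral leaflet, and was 1.35-fold lower in the apex than in the leaflets (log2 change -0.27, limma adjusted p = 0.00673; 0.05126 under quantile normalization).

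**Figure D4:**
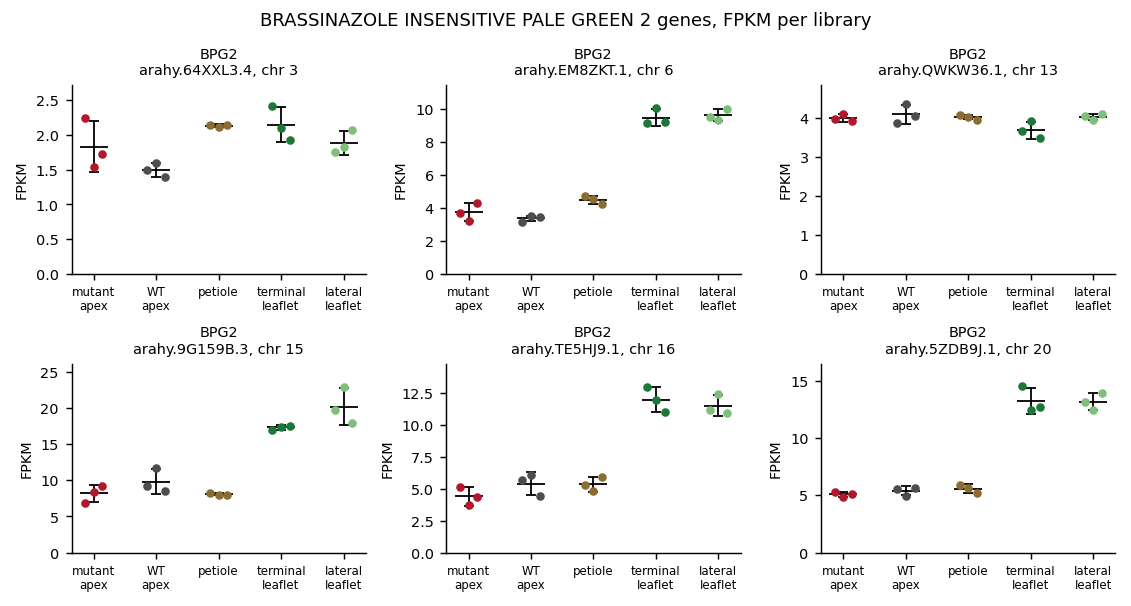
FPKM (vertical axes, from 0, a separate scale per panel) in each library of the 5 groups for the 6 BPG2 genes; points are libraries, the long bar is the mean and the whiskers are 1 SD (n = 3). In arahy.EM8ZKT.1, arahy.9G159B.3, arahy.TE5HJ9.1 and arahy.5ZDB9J.1 the leaflets stood above the other tissues, whereas arahy.QWKW36.1 stayed between 3.48 and 4.36 FPKM in all 15 libraries.

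The gene like BRI1-5 ENHANCED 1, whose Arabidopsis namesake is a reductase that lowers brassinosteroid levels, was expressed near the detection filter. At this locus, arahy.1QBL6K.1 on chromosome 2, the mutant apex had 0.76, 0.88 and 0.82 FPKM and the wild-type apex 0.51, 0.57 and 0.54 FPKM, which did not overlap but missed the threshold (limma adjusted p = 0.0611). The petiole had 0.24, 0.44 and 0.32 FPKM, the terminal leaflet 1.26, 1.41 and 1.22 FPKM and the lateral leaflet 0.94, 1.28 and 1.45 FPKM. The petiole was 3.78-fold below the leaflets (log2 change -0.76) and the wild-type apex 2.33-fold below them (log2 change -0.55). This gene passed the filter only through its leaflet values, so a difference from the leaflets was favoured by the filter. Both contrasts with the leaflets are therefore a description.

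The other 10 loci were not tested, and none exceeded 0.85 FPKM in any library. They comprise 7 transcription factor genes, 2 coreceptor genes and a gene like brassinosteroid-related acyltransferase 1, arahy.E4PME3.1 on chromosome 6, which did not exceed 0.03 FPKM. Among the coreceptor genes, arahy.DH99G0.1 averaged 0.443 ± 0.0896 FPKM in the wild-type apex and 0.0767 ± 0.0306 FPKM in the petiole, next to arahy.AVL2ZA.1 at 4.17 ± 0.235 FPKM and 4.90 ± 0.249 FPKM in the same tissues. Of the 27 tested loci, 23 were at 1 FPKM or more in every library and 4 were below 1 FPKM in some.

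Other genes of the pathway were taken from product names and comprised 145 loci, of which 111 were tested. In the mutant apex against the wild-type apex 36 rose and 13 fell, so that 44.1% of the tested genes were called, beside 35.6% of all genes, 23.7% as higher and 11.9% as lower. Their median log2 change was 0.08, beside 0.07 over all genes. In the wild-type apex against the leaflets 56 were higher and 38 lower, 84.7% in all, near the 79.6% of all genes. The petiole against the leaflets gave 50 higher and 43 lower, 83.8% beside 74.8% of all genes. The wild-type apex against the petiole gave 35 higher and 30 lower, 58.6% beside 54.7%, and the terminal against the lateral leaflet 2 higher and 9 lower, 9.91% beside 13.1%. The shares called of this list lay near those of the whole table.

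Of 24 tested synthesis genes 13 were higher and 6 lower in the wild-type apex than in the leaflets, and the 79.2% called was about the share of all genes, 79.6%. The tested genes include arahy.1LLR2Z.1, which passed the filter only through the apices. They also include the cytochrome P450 85A gene arahy.27TAQT.1, at 1 FPKM or more only in its 6 leaflet libraries. The filter favoured calls in those directions, so the split is a description. The largest contrasts were 2 genes like delta(7)-sterol-C5(6)-desaturase, which acts in the sterol steps before brassinosteroids. On chromosome 14, arahy.1LLR2Z.1 had 17.39, 15.78 and 16.77 FPKM in the mutant apex and 19.14, 18.95 and 18.89 FPKM in the wild-type apex, against 0.05 to 0.08 FPKM in the petiole and 0.06 to 0.17 FPKM in the leaflets. The apex libraries thus stood far above all others. This gene passed the filter on low values only through its 6 apex libraries and so had to differ, and its contrast is given as a description. Its counterpart by product on chromosome 13, arahy.Y29W5P.1, which was picked after its values were seen, had 16.1 ± 1.08 FPKM in the wild-type apex and 0.0333 ± 0.0577 FPKM in the petiole and in each leaflet.

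Later steps of synthesis ran in more than a single direction. The gene for 3-oxo-5-alpha-steroid 4-dehydrogenase 2, arahy.CLBB9J.1 on chromosome 9, which belongs to the steroid reductase family of DET2, was highest in the petiole, at 64.5 ± 2.25 FPKM, against 8.69 ± 1.13 FPKM in the terminal and 8.55 ± 0.812 FPKM in the lateral leaflet (log2 change 2.77, limma adjusted p = 2.24e-14). Cytochrome P450 85A, the oxidase of the last steps, was leaflet-high in its 2 genes with the most transcript, also picked after their values were seen. They ranked first through their leaflet values, so this is a description. The gene arahy.2F8F1S.1 on chromosome 4 had 1.53 ± 0.103 FPKM in the wild-type apex and 1.27 ± 0.264 FPKM in the petiole. Its leaflets had 6.76 to 7.95 FPKM in terminal and 6.99 to 7.53 FPKM in lateral position. The 85A-like gene arahy.31R89H.1 on chromosome 10 was nearer level. It had 1.60 ± 0.211 FPKM in the wild-type apex, 0.947 ± 0.241 FPKM in the petiole, 1.74 ± 0.208 FPKM in the terminal and 2.10 ± 0.162 FPKM in the lateral leaflet. A cytochrome P450 like Arabidopsis BAS1, which inactivates the hormone, was low: arahy.U2CXJI.1 had 1.13 ± 0.202 FPKM in the wild-type apex and 0, 0 and 0.17 FPKM in the petiole. It reached 1 FPKM in 5 libraries, all from the apices, so this too is a description without a test.

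Among signalling kinases, 11 of 17 tested GSK3-type genes, the class of the BZR1-inhibiting BIN2, were higher in the wild-type apex than in the leaflets and 1 was lower. Over all genes 35.3% were higher and 44.3% lower, and the 70.6% of these kinases called in either direction was below the 79.6% of all genes. The shaggy-related kinase theta-like gene arahy.SP9TBW.1 on chromosome 2 had 30.8 ± 1.12 FPKM in the wild-type apex, against 8.40 ± 0.435 FPKM in the terminal and 9.98 ± 0.46 FPKM in the lateral leaflet (log2 change 1.64, limma adjusted p = 2.74e-14). Of these kinases 7 rose and 2 fell in the mutant apex, 52.9% of those tested, beside 35.6% of all genes. An eta gene of this family on chromosome 20 had 93.55, 96.07 and 95.90 FPKM in the mutant and 73.50, 71.18 and 77.09 FPKM in the wild-type apex (log2 change 0.36, limma adjusted p = 6.74e-06). Of 10 tested BSK kinases 4 rose in the mutant, beside 23.7% of all genes, with the BSK3-like gene arahy.X0DYQH.1 on chromosome 12 at 19.4 ± 0.147 FPKM in the mutant and 13.2 ± 0.147 FPKM in the wild-type apex (log2 change 0.52, limma adjusted p = 3.69e-07).

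The 14-3-3 proteins, which hold phosphorylated BZR1 in the cytoplasm in Arabidopsis, gave 10 rises and 3 falls among 14 tested in the mutant, beside 23.7% and 11.9% of all genes, with a median log2 change of 0.24. The smallest p was that of arahy.CC9DVG.2 on chromosome 8, at 133.12, 132.83 and 133.43 FPKM in the mutant and 108.42, 103.66 and 103.20 FPKM in the wild-type apex (log2 change 0.34, limma adjusted p = 3.97e-07). Of 7 tested BSL phosphatases 2 rose, as did 2 of 5 tested SERK genes, the family that holds BAK1, when 23.7% of all genes rose. Of 12 tested receptor-like kinases of the HERK, THESEUS and FERONIA type 3 rose, 25% and so about the share of all genes, with the FERONIA gene arahy.LKT9PL.1 on chromosome 14 at 10.7 ± 0.394 FPKM in the mutant and 6.03 ± 0.568 FPKM in the wild-type apex (log2 change 0.74, limma adjusted p = 9.72e-07).

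The bHLH partners, a list of growth-promoting PRE and BIM proteins and of their antagonist IBH1, gave 4 higher and 10 lower of 15 tested in the wild-type apex against the leaflets, beside 35.3% and 44.3% of all genes and 79.6% in either direction. The PRE6 gene arahy.WVIE7L.1 on chromosome 13 had 0.48 ± 0.195 FPKM in the wild-type apex and 1.43 ± 0.146 FPKM in the petiole, against 9.95 ± 0.278 FPKM in the terminal and 12.1 ± 0.877 FPKM in the lateral leaflet. It passed the filter through its petiole and leaflet libraries alone, and its apex contrast is a description. The IBH1-like 1 gene arahy.40EERC.1 reached 1 FPKM in 6 libraries, all from leaflets. At both genes the filter favoured a lower apex call, so the count of 10 lower is a description too. A further PRE6 gene, arahy.HR6FN8.1 on chromosome 20, peaked in the petiole at 61.9 ± 1.42 FPKM, with the wild-type apex at 25.0 ± 1.07 FPKM (log2 change -1.27 for apex against petiole, limma adjusted p = 2.03e-10).

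EXORDIUM genes, targets of brassinosteroid signalling in Arabidopsis, gave 2 rises and 3 falls among 6 tested in the mutant apex, beside 23.7% and 11.9% of all genes. EXORDIUM-like 5 gene arahy.K9CZVJ.1 on chromosome 19 had 231 ± 1.65 FPKM in the mutant and 185 ± 12.4 FPKM in the wild-type apex (log2 change 0.32, limma adjusted p = 5.25e-05). The EXORDIUM gene arahy.X5MG7Q.1 on chromosome 17 had 1.00 ± 0.141 FPKM in the mutant and 2.27 ± 0.664 FPKM in the wild-type apex (log2 change -0.69, limma adjusted p = 0.0014). The same gene separated the leaflets, with 3.91, 3.65 and 2.91 FPKM in the terminal and 7.55, 6.25 and 8.58 FPKM in the lateral leaflet (log2 change -0.91, limma adjusted p = 0.00044).

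The authors' deposited table also holds comparisons of these groups, by a test that the sources used here do not give. In the authors' deposited table, 12 brassinosteroid genes were higher and 7 lower in the mutant apex at a q-value under 0.05, of 35 with a q-value, beside 49.1% of all genes. For the terminal against the lateral leaflet the authors' deposited table gave 1 higher and 5 lower of 34, beside 26.7% of all genes. For the wild-type apex against the petiole the authors' deposited table gave 11 higher and 8 lower of 35, beside 64.3% of all genes.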

How the data were processed

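The authors deposited FPKM values for 59878 gene rows in 15 libraries, per the file headers, printed to 2 decimals, together with log2 ratios and p-values and q-values for pairs of groups, per the file headers, whose test is not given in the sources used here. Aligner and quantifier are likewise not given in the sources used here; FPKM values hold no counts, so depth was estimated from the steps between low values, assuming full transcript length. The submitters' processing notes name TAIR10, whereas the gene identifiers and coordinates in the file are of the first peanut Tifrunner assembly and are printed as the file gives them. Columns of the leaflets were matched to libraries through their tissue label. The design text calls the 3 libraries of a group biological replicates.

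The 39031 genes that reached 1 FPKM in 3 or more libraries were transformed as log2(FPKM + 1) and fitted with limma 3.58.1 in R 4.3.3 (trend, robust empirical Bayes, 1 mean per group over all 15 libraries), with Benjamini-Hochberg adjustment over all genes and calls at an adjusted p under 0.05. The procedure was tested on simulated data. Tables and figures were made with Python 3.11.15, pandas 2.3.3 and matplotlib 3.10.9. The 22 alternatives were a pseudocount of 0.1, no filter, quantile normalization, TPM rescaling, only the groups compared, a replicate block, leaving out each library, and repeated loci tested once, the last chosen after seeing the data.

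Members, tests and lists were chosen with earlier results of these data known. Genes named were the 8 largest rises and 8 largest falls among called members with 1 FPKM or more in the higher group, the most expressed member of each class and the gene with the smallest p of each pathway list; others are marked. BPG2 and the gene like BRI1-5 ENHANCED 1 were given classes of their own after the data were seen, and the list patterns were made case-sensitive and that for ILI proteins narrowed, because they caught unrelated products. Loci repeated in the table were counted once among members and lists, while the whole table keeps its 1506 repeated rows. Some parts of the genome are not analysed here.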

Additional observations from a re-analysis of the deposited data

How the results depend on the processing

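Of 76 called pairs of a member and a comparison, 60 kept their call and direction under all 22 alternatives, 16 lost the call under at least 1, and 0 changed direction; the cause was not tested. The counts for apex or petiole against leaflets, and for wild-type apex against petiole, stayed within 1.5 times under every alternative. In the mutant apex against the wild-type apex the 2 member falls became 4 under quantile normalization and 1 with only the groups compared, and ranged from 1 to 3 when a library was left out; the 13 falls among pathway genes ranged from 8 to 15 then. In the terminal against the lateral leaflet the 1 member rise became 0 at a pseudocount of 0.1 and ranged from 0 to 1 without a library. The 2 member falls there became 1 under quantile normalization, 4 under TPM rescaling and 0 with only the groups compared, and ranged from 0 to 2 without a library. For pathway genes there, the 2 rises became 1 at a pseudocount of 0.1 and ranged from 0 to 3 without a library, and the 9 falls became 3 with only the groups compared and ranged from 5 to 9 without a library. Quantile normalization also turned the split over all genes in the petiole against the leaflets from 12004 higher and 17196 lower to 15111 higher and 13656 lower, and its median change from -0.11 to 0.02. With the replicate number as a block, the terminal leaflet member falls numbered 1 instead of 2, and the mutant rise of arahy.G0KCTK.1 lost its call (limma adjusted p = 0.0603). Same-numbered libraries of the groups compared deviated with correlations of -0.0551 to 0.0503 across genes, and 3 of 15 libraries correlated best with their own number. Such correlations cannot show whether same-numbered libraries have a plant or a batch in common. Depth limits the precision of low values such as those of arahy.6A3U8Z.1 and arahy.RCTC3C.1; its part in their scatter was not tested.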
